A study of Mus musculus with 72 samples.

Results

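The 9 genes described here mark early steps of the oligodendrocyte lineage. *Pdgfra*, *Cspg4* and *Ptprz1* mark the precursor cell, and *Gpr17*, *Bcas1*, *Enpp6*, *Neu4*, *Tns3* and *Bmp4* mark cells that have begun to differentiate and are newly formed. They were taken by symbol from the 55401 genes of a gene count table, by a rule that uses no measured level, although the genes were proposed with earlier results of these data known. All 9 were found and all 9 passed the filter on low counts in each of the 3 exposure windows.

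The table covers 72 bulk RNA-seq libraries of brain tissue from C57Bl/6 mouse pups (C57Bl/6NTac in the study's methods), described as cortex in the deposited design and taken from the right hemisphere. Morphine was compared with saline in 3 windows. At PND1 (10 morphine and 14 saline libraries) dams carried an osmotic minipump that released morphine at 10 mg/kg/day or saline during pregnancy, and brains were collected 6 hours after the litter was found. At PND14 (12 and 12) the pups themselves received 10 mg/kg morphine or saline subcutaneously 2 times a day from PND1 to PND14, and were collected 6 hours after the last injection. At 3-Tri (12 and 12) both exposures followed each other, and these pups too were collected at postnatal day 14, 6 hours after the last injection. No genotype beyond the strain was given, the study's methods describe a move to surrogate dams for the litters of dams with a pump, and each window holds libraries labelled female and male. Between PND1 and the later windows the age, the schedule and the cohort change together and cannot be told apart. The labels do not give the litter, and p-values measure the spread between libraries, which may share one.

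Oligodendrocyte precursors divide and spread through the brain before birth and in the first postnatal weeks. They carry the platelet-derived growth factor receptor encoded by *Pdgfra* and the proteoglycan NG2 encoded by *Cspg4*, and part of them leave the cycle, pass through a short premyelinating state marked by *Gpr17*, *Bcas1* and *Enpp6*, and then wrap axons in myelin. In the mouse cortex most of this differentiation takes place after birth. The genes are not exclusive to these cells: *Ptprz1*, a receptor tyrosine phosphatase, is also made by radial glia and astrocytes, *Cspg4* by pericytes, *Pdgfra* by meningeal fibroblasts, and *Bmp4*, a secreted growth factor, by several cell types. In bulk tissue, fewer cells of a type and less RNA per cell cannot be told apart.

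Promoter windows from RefSeq (assembly GRCm38.p6, 250 bases before to 50 after each gene's start) were given for 7 of the 9 genes. *Pdgfra*, *Enpp6* and *Tns3* are printed because they show a precursor gene and, of the newly formed genes given, those with the lowest and the highest number of CG pairs. Capitals mark CG pairs in all 3 and the CATCTG motif in *Pdgfra*. The windows are chr5:75152001-75152300 on the plus strand, chr8:46986637-46986936 on the plus strand and chr11:8664486-8664785 on the minus strand, each read 5′ to 3′ along the gene.
Pdgfra: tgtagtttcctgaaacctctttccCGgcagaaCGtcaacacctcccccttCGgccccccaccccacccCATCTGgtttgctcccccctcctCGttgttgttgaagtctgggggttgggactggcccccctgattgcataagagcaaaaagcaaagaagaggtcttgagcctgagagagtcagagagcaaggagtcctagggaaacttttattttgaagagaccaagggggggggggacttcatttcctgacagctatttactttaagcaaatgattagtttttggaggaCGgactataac
Enpp6: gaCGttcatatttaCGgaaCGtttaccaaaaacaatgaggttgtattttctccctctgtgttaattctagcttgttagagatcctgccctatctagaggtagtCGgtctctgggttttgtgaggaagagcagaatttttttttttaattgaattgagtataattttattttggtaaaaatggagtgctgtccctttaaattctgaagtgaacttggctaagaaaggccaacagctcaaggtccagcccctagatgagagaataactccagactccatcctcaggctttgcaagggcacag
Tns3: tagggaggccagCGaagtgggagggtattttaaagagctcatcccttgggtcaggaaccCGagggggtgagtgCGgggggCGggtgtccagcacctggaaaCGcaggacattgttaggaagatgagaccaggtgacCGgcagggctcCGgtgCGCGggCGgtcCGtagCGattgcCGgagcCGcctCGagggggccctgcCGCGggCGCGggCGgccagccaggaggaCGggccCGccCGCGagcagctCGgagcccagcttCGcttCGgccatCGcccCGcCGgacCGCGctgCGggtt
The *Pdgfra* window holds 5 CG pairs, the *Enpp6* window 4 and the *Tns3* window 33, beside a median of 7 over the 32851 promoters of the table. The stages did not separate by this count, since the precursor gene *Ptprz1* has 29 and the newly formed genes *Neu4* and *Bmp4* have 6 and 12. The CG pairs were counted after the sequences had been seen. The SOX core ACAAAG, read on both strands, was in 0 of the 7 windows, where 18.7% of all promoters hold it. The E-box motif CAGCTG was in 0 windows, where 16.3% of all promoters hold it. The E-box motif CATCTG was in 1 window, that of *Pdgfra*, where 17.2% of all promoters hold it. A match is a run of letters and was not tested as a binding site.

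All 9 genes are protein coding, and each lies on a different chromosome (GENCODE M21 coordinates, mm10). The precursor genes are *Pdgfra* (ENSMUSG00000029231.15, chr5:75152292-75198215, plus strand), *Cspg4* (ENSMUSG00000032911.6, chr9:56865033-56899870, plus) and *Ptprz1* (ENSMUSG00000068748.7, chr6:22875502-23052916, plus). The newly formed genes are *Gpr17* (ENSMUSG00000052229.5, chr18:31942997-31949636, minus), *Bcas1* (ENSMUSG00000013523.13, chr2:170346991-170427845, minus), *Enpp6* (ENSMUSG00000038173.15, chr8:46986887-47096762, plus), *Neu4* (ENSMUSG00000034000.15, chr1:94020451-94028334, plus), *Tns3* (ENSMUSG00000020422.14, chr11:8431652-8664535, minus) and *Bmp4* (ENSMUSG00000021835.15, chr14:46383520-46390669, minus). Exons of *Gpr17* overlap those of *Lims2* on the opposite strand, and *Lims2* drew 116535 counts in all against 101458 of *Gpr17*. *Bcas1* likewise overlaps *Bcas1os2* and *Bcas1os1*, with 23316 and 7224 counts beside its 100935. The counting was not stated to use strand, so it is not known whether reads of these partners were told apart.

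The libraries held between 20.7 and 27.3 M counts at PND1, 4.4 and 21.4 M at PND14 and 3.1 and 19.9 M at 3-Tri. The sex genes went against the gender label in 4 libraries at PND1 (2 morphine, 2 saline), in 0 at PND14 and in 12 at 3-Tri (8 morphine, 4 saline), so morphine was compared with saline first over both labels. At PND1 the libraries differed in *Hox* genes: the summed level of 20 *Hox* genes ran between 0.968 and 133 CPM (counts scaled to an equal total per library) in morphine libraries (median 25.5) and between 0.0426 and 68.8 CPM in saline libraries (median 10.5), against at most 1.72 CPM in any later library. *Hox* genes are known for hindbrain and spinal cord and not for cortex, and their level is given beside each PND1 result it touches.

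The stages were first compared between windows. The 6 newly formed genes were far higher at PND14 than at PND1, *Pdgfra* and *Cspg4* rose by less, and *Ptprz1* did not pass the test in saline libraries. Among saline libraries *Neu4*, a sialidase, had a lowest, median and highest level of 18.1, 20.3 and 22.4 CPM at PND14 against 0.211, 0.588 and 0.793 CPM at PND1, where it rested on 3 to 31 counts per library over both drugs. *Enpp6*, a choline phosphodiesterase of premyelinating cells, had 37.2, 47.8 and 54.1 CPM at PND14 against 0.429, 1.34 and 2.38 CPM at PND1. Neither gene's groups overlapped.

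*Bcas1*, a protein of early myelinating cells, had 133, 145 and 159 CPM in saline libraries at PND14 against 4.45, 9.54 and 14.7 CPM at PND1. *Gpr17*, the orphan receptor of the premyelinating state, had 134, 143 and 162 CPM at PND14 against 10.3, 13.3 and 19.6 CPM. *Tns3*, a focal adhesion adaptor, had 111, 126 and 135 CPM at PND14 against 29.5, 38.5 and 42.0 CPM, and *Bmp4* had 7.47, 10.7 and 14.2 CPM against 2.58, 4.09 and 4.94 CPM. In all 4 genes the lowest PND14 library lay above the highest PND1 library. The fold differences between PND14 and PND1 in saline libraries were 38.3 for *Neu4*, 34.6 for *Enpp6*, 15.5 for *Bcas1*, 10.0 for *Gpr17*, 3.28 for *Tns3* and 2.72 for *Bmp4*, from log2FC of 5.26 ± 0.10, 5.11 ± 0.11, 3.96 ± 0.10, 3.33 ± 0.07, 1.72 ± 0.04 and 1.45 ± 0.08 (± SE, n = 12 and 14).

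The precursor genes moved on another scale. *Pdgfra* had 106, 115 and 130 CPM (lowest, median, highest) in saline libraries at PND14 against 77.0, 88.6 and 101 CPM at PND1, a log2FC of 0.39 ± 0.04. *Cspg4* had 30.5, 36.2 and 41.4 CPM at PND14 against 19.6, 23.2 and 25.4 CPM at PND1, a log2FC of 0.68 ± 0.05. The groups of these genes did not overlap either. No share of all genes without overlap is given, so the separation of these and the newly formed genes is a description. *Ptprz1* had 424, 489 and 609 CPM at PND14 against 451, 503 and 601 CPM at PND1, and these overlapped almost fully (log2FC -0.07 ± 0.05, adjusted p = 0.166 by edgeR's quasi-likelihood test with Benjamini-Hochberg adjustment).

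By that test 8 of the 9 genes were higher at PND14 than at PND1 in saline libraries, all but *Ptprz1*, where 41.7% of the 22010 genes tested were called higher. The same 8 were higher at 3-Tri than at PND1 in saline libraries (42.1% of all genes), with log2FC of 5.19 for *Neu4*, 5.07 for *Enpp6*, 3.91 for *Bcas1*, 3.26 for *Gpr17*, 1.69 for *Tns3*, 1.42 for *Bmp4*, 0.70 for *Cspg4* and 0.44 for *Pdgfra*. With so many genes called, the sizes say more than the count. In morphine libraries all 9 genes were called at PND14 against PND1 (83.5% of all genes in either direction) and at 3-Tri against PND1 (83.9%), the same 8 higher and *Ptprz1* lower, by -0.26 ± 0.05 and -0.30 ± 0.05. *Ptprz1* was also called lower in saline libraries, in both later windows, with DESeq2, with DESeq2 size factors and without the filter on low counts. Without the 10 PND1 libraries highest in *Hox* genes, a choice made after seeing the data, the calls of the 9 genes in these 4 contrasts stayed as they were.

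**Figure D1:**
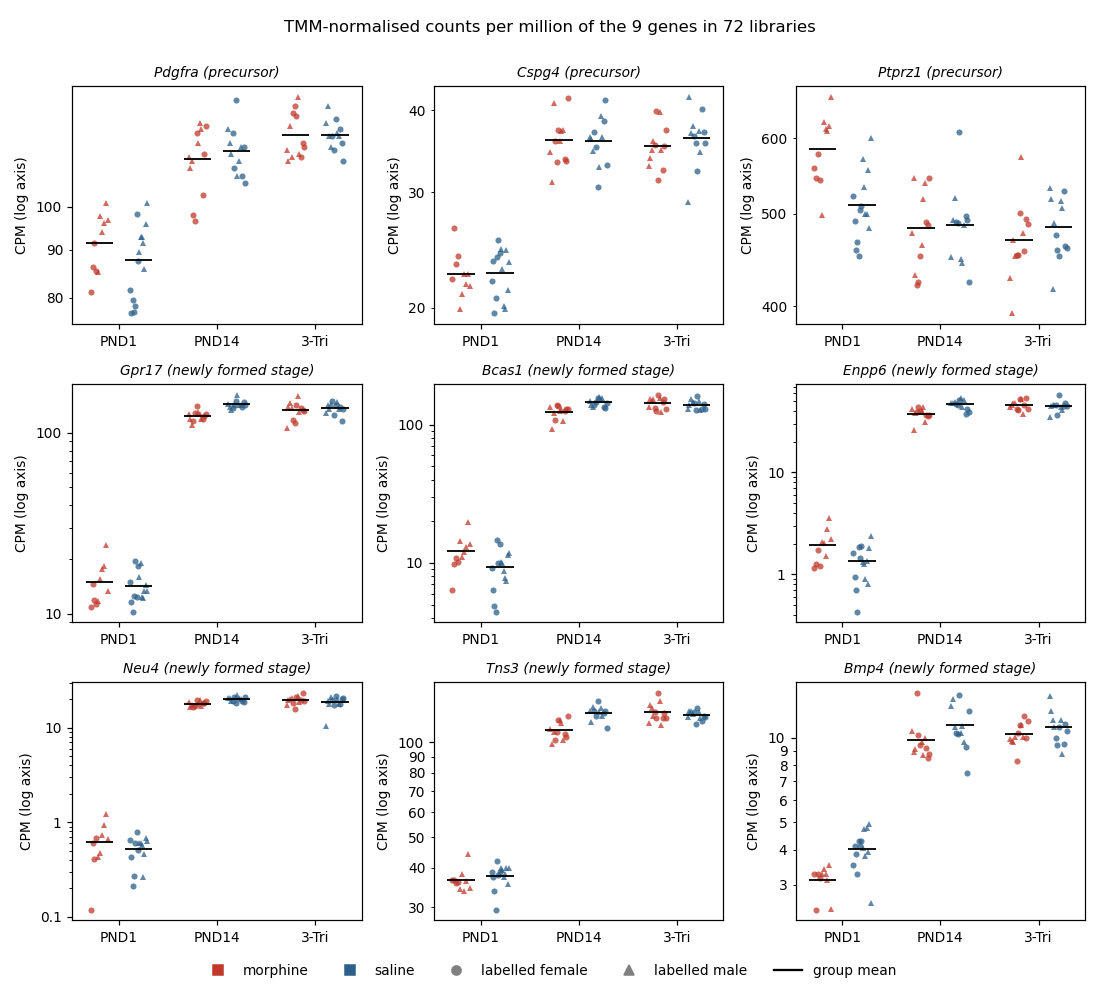
Normalised CPM (log axis, scaled per gene) of the 9 genes in each of the 72 libraries, by window, with morphine left of saline. Circles are libraries labelled female, triangles those labelled male, and bars the group means. The 6 newly formed genes at PND14 and 3-Tri lie above every PND1 library, while *Ptprz1* overlaps across windows.

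**Figure D2:**
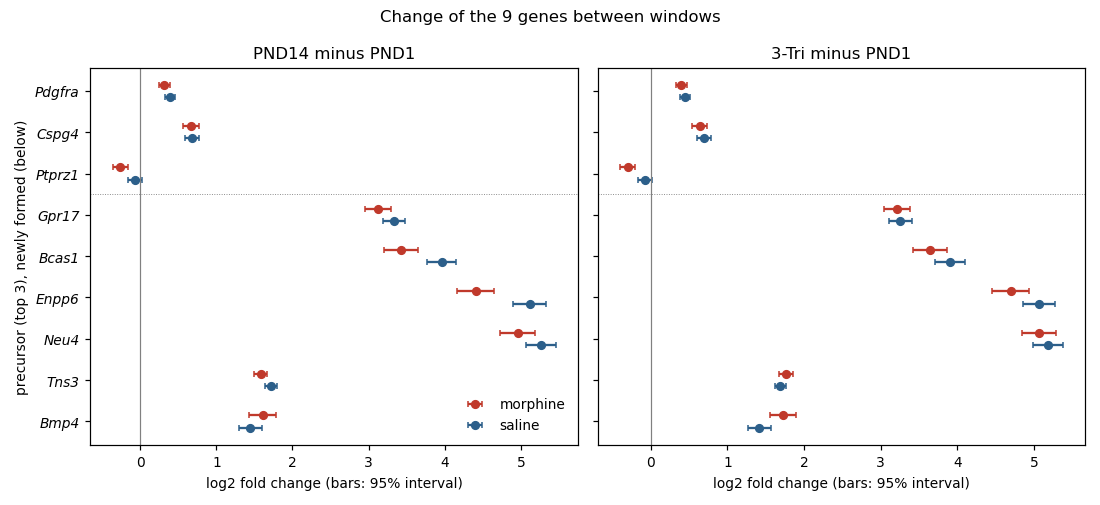
Log2FC of each gene at PND14 (left) and 3-Tri (right) over PND1, for morphine and saline libraries, with the 95% interval as bars. *Neu4* and *Enpp6* stand farthest to the right, and *Ptprz1* alone is at or below 0.

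Other genes of the lineage, from lists drawn up for this comparison, gave the setting. Of 20 other committed and newly formed genes tested, 18 were higher and 2 lower at PND14 than at PND1 in saline libraries, with *Ugt8a*, an enzyme of myelin galactolipids, at a log2FC of 4.94 and *Myrf*, the regulator of myelin genes, at 3.89. Of 17 myelin genes 16 were higher and 1 lower, with *Mag* at 6.04 and *Mbp* at 5.49. Of 20 other precursor genes 14 were higher and 4 lower, led by *Susd5* at 3.71, *Sox10* at 1.96 and *Sox8* at 1.36. All 8 proliferation genes were lower. The part of other cells in the window differences was not tested, and single markers of astrocytes and microglia rose too, *Slc1a2* at 4.10 and *Tmem119* at 2.87. In saline libraries the median sum of astrocyte and radial glia markers was 1340 CPM at PND1 and 4450 CPM at PND14. That of microglia markers was 149 and 316 CPM. The sums of meningeal fibroblast (506 and 315 CPM) and choroid plexus markers (377 and 293 CPM) went the other way. Genes higher and lower within these lists are not given here.

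The order of the genes within a window changed with it. Per kilobase of exon, *Ptprz1* averaged 41.1 ± 3.5 CPM per kb in morphine libraries and 35.9 ± 3.0 in saline libraries at PND1 (SD, n = 10 and 14), followed by *Pdgfra* at 9.14 ± 0.67 and 8.77 ± 0.81, and no other gene there averaged over 3.38. *Tns3*, *Gpr17* and *Bcas1* lay within each other's range at PND1, and *Enpp6* (0.304 and 0.209) and *Neu4* (0.135 and 0.112) were lowest. At PND14 *Bcas1* reached 32.6 ± 3.6 CPM per kb in morphine libraries and 38.4 ± 2.4 in saline libraries, beside 33.9 ± 3.3 and 34.2 ± 3.3 for *Ptprz1*. These overlapped, as did *Pdgfra* (11.2 and 11.5) and *Tns3* (9.77 and 11.1). *Cspg4* was now the lowest, at 3.02 and 3.01 CPM per kb.

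Whether morphine given to the pups changed the lineage was asked at PND14. Of the 6 newly formed genes 4 fell in morphine pups, to between 0.814 and 0.885 of the saline level, and none of the 3 precursor genes was called. *Gpr17* had 111, 126 and 141 CPM (lowest, median, highest) in morphine libraries against 134, 143 and 162 CPM in saline libraries, and 11 of 12 morphine libraries lay below the lowest saline library. *Bcas1* had 93.7, 127 and 139 CPM in morphine libraries against 133, 145 and 159 CPM in saline libraries, with 9 of 12 below the lowest saline library. *Tns3* had 98.9, 108 and 121 CPM in morphine libraries against 111, 126 and 135 CPM in saline libraries, with 8 of 12 below. All 12 morphine libraries lay under the saline median in each of these genes, and the groups still touched.

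*Enpp6* had 25.9, 38.6 and 44.2 CPM in morphine libraries against 37.2, 47.8 and 54.1 CPM in saline libraries, with 5 of 12 morphine libraries below the lowest saline library. *Neu4* had 16.5, 18.2 and 19.6 CPM in morphine libraries against 18.1, 20.3 and 22.4 CPM in saline libraries, with 6 of 12 below. For both genes all 12 morphine libraries were under the saline median. *Bmp4* spread more widely, with 8.45, 9.32 and 14.4 CPM in morphine libraries against 7.47, 10.7 and 14.2 CPM in saline libraries, so that its saline range covered all but 1 of the morphine libraries.

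By edgeR, 4 of the 9 genes fell in morphine pups at PND14, where 1.06% of the 19636 genes tested were called lower. They were *Gpr17* (log2FC -0.21 ± 0.03, adjusted p = 0.0054), *Bcas1* (-0.23 ± 0.05, 0.017), *Enpp6* (-0.30 ± 0.07, 0.026) and *Tns3* (-0.18 ± 0.04, 0.015), all of them newly formed genes. *Neu4* (-0.14 ± 0.04, adjusted p = 0.067) and *Bmp4* (-0.20 ± 0.09, adjusted p = 0.239) did not pass. None of the precursor genes was called, and their 95% intervals for log2FC ran between -0.10 and 0.06 for *Pdgfra*, between -0.09 and 0.10 for *Cspg4* and between -0.11 and 0.09 for *Ptprz1*. *Pdgfra* had 96.7, 114 and 123 CPM in morphine libraries against 106, 115 and 130 CPM in saline libraries, and *Cspg4* had 31.1, 35.9 and 41.7 CPM against 30.5, 36.2 and 41.4 CPM. *Ptprz1* had 421, 482 and 545 CPM in morphine libraries and 424, 489 and 609 CPM in saline libraries, and these overlapped. The difference between the stages was not itself tested.

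The labels carry an ID number shared by 6 libraries (3 labelled female, 3 male), 4422 and 4423 under morphine, 4424 and 4425 under saline, without saying what it stands for. Both morphine means lay below both saline means for *Gpr17* (124 and 125 CPM against 142 and 146), *Bcas1* (122 and 125 against 144 and 146), *Enpp6* (38.3 and 37.4 against 48.6 and 44.8), *Neu4* (17.6 and 18.5 against 19.7 and 20.4) and *Tns3* (108 and 111 against 126 and 123). They did not for *Bmp4* or for any precursor gene. No share over all genes is given for this order of the means, so it is a description. When the counts were summed per number, leaving 4 values, none of the 4 calls passed in edgeR (adjusted p = 0.10 for *Gpr17*, 0.069 for *Bcas1*, 0.068 for *Enpp6* and 0.13 for *Tns3*), with log2FC of -0.19, -0.23, -0.30 and -0.17. A limma fit with the number as a random effect estimated its correlation at -0.0225, so that it took nothing off for the number, and its calls are no check on it. Leaving out 4422, 4423, 4424 or 4425 left 3, 2, 0 and 0 calls, while the log2FC stayed between -0.23 and -0.18 for *Gpr17*, -0.25 and -0.22 for *Bcas1*, -0.35 and -0.23 for *Enpp6* and -0.20 and -0.15 for *Tns3*. Each number holds libraries of 1 drug, so that beyond these values the drug and whatever the numbers stand for cannot be told apart.

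Within the gender labels at PND14, *Gpr17* (-0.23 ± 0.05) and *Bcas1* (-0.32 ± 0.07) fell in pups labelled male (adjusted p = 0.0366 for both in edgeR), where 0.199% of genes were called lower, and *Enpp6* was at -0.42 ± 0.10 with an adjusted p of 0.0507. Without ID 4422, 4423, 4424 or 4425 the calls in pups labelled male numbered 1 (*Bcas1*), 0, 0 and 0, and without the filter on low counts *Gpr17* was at an adjusted p of 0.054. In pups labelled female 0 of the 9 genes and 0% of all genes were called by edgeR, 0 of the 9 by DESeq2, and 2 of the 9 had an unadjusted p below 0.05, *Gpr17* at -0.18 ± 0.05 and *Tns3* at -0.17 ± 0.05. The difference between the labels in the morphine effect was called for 0 of the 9 genes, by edgeR and by DESeq2, and for 0% of all genes.

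**Figure D3:**
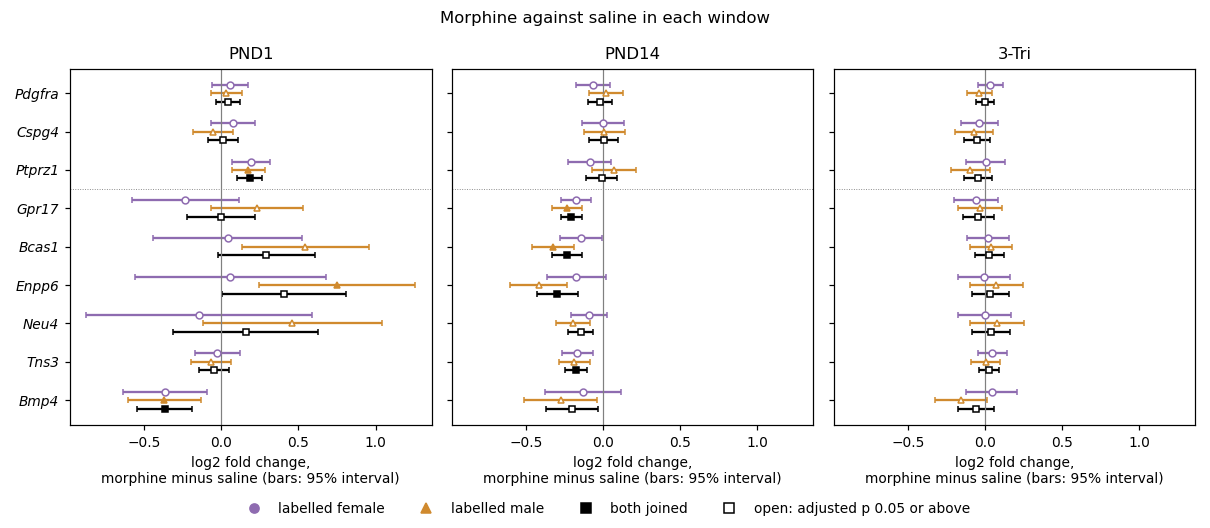
Log2FC of morphine over saline for the 9 genes at PND1, PND14 and 3-Tri, with the 95% interval as bars, for libraries labelled female, libraries labelled male and both joined. Filled symbols have an adjusted p below 0.05, and at PND14 the joined values of *Gpr17*, *Bcas1*, *Enpp6* and *Tns3* lie between -0.30 and -0.18 while those of the 3 precursor genes lie between -0.02 and 0.00.

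The companion lists were counted in the same contrast. Of 20 other precursor genes 0 were higher and 0 lower by edgeR, with a median log2FC of -0.02, and *Matn4*, the one with the smallest p, was at -0.17 (adjusted p = 0.0805). Of 20 other committed and newly formed genes 0 were higher and 6 lower, with a median of -0.15. Among the 6 were *Ugt8a* at -0.37, *Myrf* at -0.30 and *Lims2*, whose exons overlap those of *Gpr17*, at -0.20. Of 17 myelin genes 0 were higher and 9 lower, with a median of -0.32, among them *Ermn* at -0.56, *Mag* at -0.41 and *Gsn* at -0.40. The median of all genes was 0.01. The lists were drawn up with earlier results of these data known, and their counts are a description.

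Markers of other cells were counted beside them. Of 8 pericyte, 8 meningeal fibroblast, 10 astrocyte and radial glia, 7 endothelial and 6 choroid plexus markers 0 were called at PND14 by edgeR, 1 of 7 microglia markers was lower (*Cx3cr1*) and 2 of 8 neuron markers were higher (*Stmn2* and *Tubb3*). The summed astrocyte and radial glia level had a range of 3760 to 4420 CPM in morphine libraries against 4080 to 5170 CPM in saline libraries, and that of microglia 233 to 317 CPM against 301 to 333 CPM. The pericyte sum ran between 255 and 335 CPM in morphine libraries and between 305 and 391 CPM in saline libraries, and the fibroblast sum reached 1170 CPM in 1 morphine library against at most 403 CPM in saline libraries. None of the markers of these lists was at 0 in every library. Their part in the levels of the 9 genes was not tested.

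At PND1, after exposure through the dam alone, 2 of the 9 genes were called by edgeR, where 16.8% of the 21714 genes tested were called in either direction. The count is near that share and is not read as a result about the 9 genes. *Ptprz1* had 498, 594 and 663 CPM (lowest, median, highest) in morphine libraries against 451, 503 and 601 CPM in saline libraries, with 5 of 10 morphine libraries above the highest saline library. It rose by a log2FC of 0.19 ± 0.04 (adjusted p = 0.0036). *Bmp4* had 2.45, 3.28 and 3.53 CPM in morphine libraries against 2.58, 4.09 and 4.94 CPM in saline libraries, with all 10 morphine libraries below the saline median. It fell with a log2FC of -0.37 ± 0.09 (adjusted p = 0.0079), which was -0.31 with an adjusted p of 0.16 without the 10 libraries highest in *Hox* genes. That setting kept 5 morphine and 9 saline libraries.

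The other newly formed genes overlapped widely at PND1. *Bcas1* had 6.37, 11.6 and 19.9 CPM in morphine libraries against 4.45, 9.54 and 14.7 CPM in saline libraries (log2FC 0.29 ± 0.16). *Enpp6* had 1.15, 1.89 and 3.57 CPM against 0.429, 1.34 and 2.38 CPM (0.41 ± 0.21), and *Gpr17* had 10.9, 14.0 and 24.1 CPM against 10.3, 13.3 and 19.6 CPM (0.00 ± 0.11). *Neu4* (0.16 ± 0.24), *Tns3* (-0.05 ± 0.05), *Pdgfra* (0.05 ± 0.04) and *Cspg4* (0.01 ± 0.05) were not called.

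In pups labelled male at PND1, 3 of the 9 genes were called by edgeR beside 14.4% of all genes: *Ptprz1* (0.18 ± 0.06, adjusted p = 0.0322), *Enpp6* (0.75 ± 0.26, 0.0493) and *Bmp4* (-0.37 ± 0.12, 0.0416). All 3 calls were lost without the libraries highest in *Hox* genes and with the *Hox* level as a covariate, when *Enpp6* was at 0.23 (adjusted p = 0.77) and 0.32 (adjusted p = 0.42). Of the morphine libraries labelled male, leaving out those high in *Hox* genes kept only replicates 6 and 7. With so few left, a lost call cannot tell the *Hox* level from the smaller number of libraries. In pups labelled female 0 of the 9 genes and 0% of all genes were called by edgeR, 0 of the 9 by DESeq2, and 2 of the 9 had an unadjusted p below 0.05, *Ptprz1* at 0.19 ± 0.06 and *Bmp4* at -0.37 ± 0.14. The difference between the labels was called for 0 of the 9 genes, by edgeR and by DESeq2, and for 0% of all genes.

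*Bcas1* and *Enpp6* followed the *Hox* level across the 24 PND1 libraries. For *Bcas1* Pearson's r was 0.88 and Spearman's rho 0.85 (log2 values, two-sided permutation p = 1e-05 for each, the smallest that the permutations can give, adjusted p = 4.5e-05 over 9 genes), and r was 0.89 within the 10 morphine libraries and 0.86 within the 14 saline libraries. For *Enpp6* r was 0.80 and rho 0.78 (permutation p = 1e-05 and adjusted p = 4.5e-05 for each), with 0.87 within morphine and 0.73 within saline libraries. Without the 2 libraries farthest from the median *Hox* level, r was 0.84 and 0.72. *Neu4* (r = 0.65, rho = 0.54, adjusted permutation p = 0.00111 and 0.0153) and *Pdgfra* (r = 0.62, rho = 0.55, adjusted p = 0.00362 and 0.0153) followed it less closely. *Gpr17* passed by r and not by rho (r = 0.47, rho = 0.45, adjusted permutation p = 0.0347 and 0.0533). *Ptprz1* (r = 0.39, rho = 0.37, adjusted permutation p = 0.0891 and 0.115), *Tns3* (r = 0.34, rho = 0.22, adjusted p = 0.13 and 0.373), *Cspg4* (r = 0.09, rho = 0.07, adjusted p = 0.688 and 0.749) and *Bmp4* (r = -0.13, rho = -0.13, adjusted p = 0.599 and 0.604) did not pass.

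**Figure D4:**
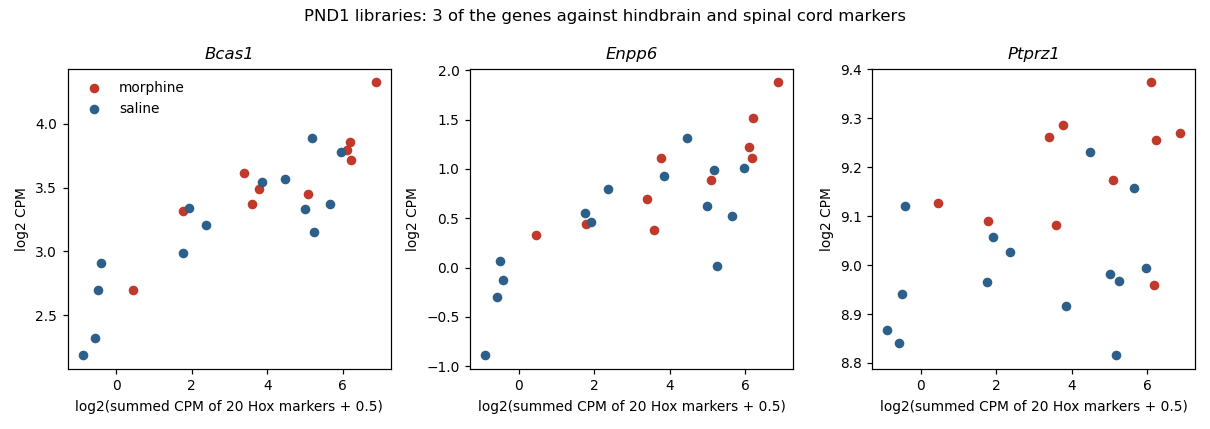
Log2 CPM of *Bcas1*, *Enpp6* and *Ptprz1* in the 24 PND1 libraries against the log2 summed CPM of 20 *Hox* genes, morphine and saline libraries apart by colour. *Bcas1* and *Enpp6* climb with the *Hox* level (r = 0.88 and 0.80), and *Ptprz1* does so less (r = 0.39).

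Of 20 other precursor genes 7 were higher and 1 lower in morphine libraries at PND1 by edgeR (median log2FC 0.11, all genes 0.01), with *Lhfpl3* at 0.27, *Sox6* at 0.25 and *Cacng4* at 0.13. Of 19 other committed and newly formed genes tested 1 was higher (*Itpr2*, 0.19), and of 17 myelin genes 0 were called. Of 10 markers of astrocytes and radial glia, which also make *Ptprz1*, 2 were higher, with *Slc1a3* at 0.16 and *Slc1a2* at 0.16, with a summed level of 1200 to 1650 CPM in morphine libraries against 1110 to 1530 CPM in saline libraries. Of 8 pericyte markers 2 were higher (*Rgs5* and *Abcc9*), of 8 fibroblast markers 2 were lower (*Col3a1* and *Col1a2*), and 1 of 6 choroid plexus markers was lower (*Clic6*). The choroid plexus sum ran between 250 and 539 CPM in morphine libraries and between 274 and 647 CPM in saline libraries. Their part in the *Ptprz1* and *Bmp4* differences was not tested.

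At 3-Tri, where both exposures followed each other, 0 of the 9 genes and 0% of the 19730 genes tested were called by edgeR, and 0 of the 9 by DESeq2. None of the 9 had an unadjusted p below 0.05, while 963 of all genes did. *Gpr17* had 107, 136 and 161 CPM (lowest, median, highest) in morphine libraries against 117, 137 and 150 CPM in saline libraries, *Bcas1* had 123, 147 and 164 CPM against 127, 140 and 161 CPM, and *Enpp6* had 37.4, 45.8 and 53.6 CPM against 34.9, 45.0 and 57.7 CPM. *Tns3* had 113, 123 and 143 CPM in morphine libraries against 114, 122 and 128 CPM in saline libraries. The log2FC of the 9 genes ran between -0.06 (*Bmp4*) and 0.04 (*Neu4*), and the 95% intervals of *Gpr17*, *Bcas1*, *Enpp6* and *Tns3* were -0.14 to 0.06, -0.07 to 0.13, -0.09 to 0.16 and -0.04 to 0.09. Neither the libraries labelled female nor those labelled male gave a call (0% of all genes in each, 0 of the 9 genes by DESeq2), nor did the difference between the labels (0%). The sex genes went against the label in 12 of these 24 libraries (8 morphine, 4 saline). The label groups at 3-Tri thus mix the sexes, and their lack of calls cannot speak for either sex or for a difference between them.

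**Figure D5:**
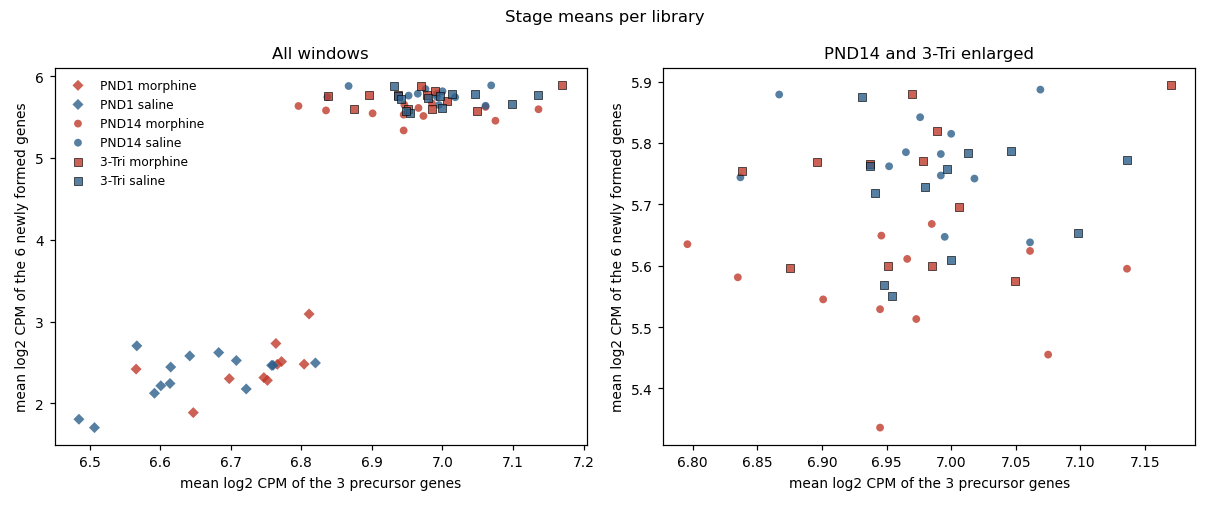
Mean log2 CPM of the 6 newly formed genes against that of the 3 precursor genes in each library, over all windows (left) and enlarged for PND14 and 3-Tri (right). The PND14 morphine libraries lie at 5.34 to 5.67 on the vertical axis, and the PND14 saline libraries at 5.64 to 5.89, while on the horizontal axis they overlap.

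Averaged per library, the log2 level of the newly formed genes minus that of the precursor genes was -4.28 ± 0.28 in morphine and -4.32 ± 0.25 in saline libraries at PND1 (SD, n = 10 and 14). It was -1.40 ± 0.14 in morphine and -1.20 ± 0.11 in saline libraries at PND14, and -1.24 ± 0.12 and -1.28 ± 0.11 at 3-Tri (n = 12 each). At PND14 the newly formed mean itself ran between 5.34 and 5.67 in morphine libraries and between 5.64 and 5.89 in saline libraries, and the precursor mean between 6.80 and 7.14 and between 6.84 and 7.07. These are descriptions and carry no test.

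The morphine effect was set against itself between windows. It was lower at PND14 than at PND1 for 3 of the 9 genes, where 6.07% of genes were called lower: *Enpp6* by -0.70 ± 0.19 (adjusted p = 0.00898 in edgeR), *Bcas1* by -0.53 ± 0.14 (0.0085) and *Ptprz1* by -0.20 ± 0.07 (0.0474). Without the libraries highest in *Hox* genes *Enpp6* was at -0.58 (adjusted p = 0.12) and *Ptprz1* at -0.20 (0.11), *Bcas1* remained called and *Gpr17* was called too. Between 3-Tri and PND1 only *Ptprz1* was called among the 9 genes, at -0.23 ± 0.07 (adjusted p = 0.0276, 3.85% of genes called lower). That call was lost without the libraries against their gender label (-0.18, adjusted p = 0.41), without those highest in *Hox* genes (-0.23, 0.08) and with a GC and length correction (-0.13, 0.12). The first of these settings takes out 12 libraries at 3-Tri and 4 at PND1, and the next 10 at PND1. Between 3-Tri and PND14 edgeR called 0 of the 9 genes (0.182% of all genes in either direction), DESeq2 called 1 (*Tns3*), and 3 had an unadjusted p below 0.05: *Enpp6* at 0.34 ± 0.12, *Bcas1* at 0.26 ± 0.13 and *Tns3* at 0.21 ± 0.06. By edgeR the morphine effect at PND14 was thus not shown to differ from that at 3-Tri for any of the 9 genes, and by DESeq2 it was for *Tns3*.

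The schedules were also set against each other within a drug. Among morphine libraries *Tns3* was higher at 3-Tri than at PND14, with a log2FC of 0.18 ± 0.04 (adjusted p = 0.00953 in edgeR), the only one of the 9 genes called where 0.295% of genes were called higher, and *Enpp6* was at 0.29 ± 0.08 (adjusted p = 0.0629). Without the libraries whose sex genes go against their label the *Tns3* value was 0.23 with an adjusted p of 0.35. That setting takes out 8 of the morphine libraries at 3-Tri. Among saline libraries 0 of the 9 genes and 0% of all genes were called by edgeR, 0 of the 9 by DESeq2 and 0 of the 9 at an unadjusted p below 0.05, with log2FC between -0.08 (*Neu4*) and 0.06 (*Pdgfra*). The PND14 morphine libraries enter several of these contrasts, which are therefore not independent of each other.

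The gender label itself gave 1 call, *Pdgfra* at PND1, where 2.5% of genes were lower under label F. It had 81.1 to 91.5 CPM in 4 morphine and 77.0 to 98.4 CPM in 7 saline libraries labelled female, against 85.2 to 101 CPM in 6 morphine and 85.9 to 101 CPM in 7 saline libraries labelled male (log2FC F over M -0.16 ± 0.04, adjusted p = 0.0214 in edgeR). The call was lost with a GC and length correction (-0.14, adjusted p = 0.12), and with the replicate number as a block the value turned to 0.04 (adjusted p = 0.97). Only the numbers 5, 6 and 7 hold both labels, with label F under saline and label M under morphine. The blocked value is therefore no check on the call. The 15 *Hox* genes tested had a median log2FC F over M of -1.10 at PND1, but 0 of them were called, and their part was not tested. At PND14 (0.107% of genes called in either direction) and 3-Tri (0%) 0 of the 9 genes were called by edgeR and 0 by DESeq2. The sex genes went against the label in 4 of the 24 PND1 libraries, in 0 at PND14 and in 12 of 24 at 3-Tri. The 3-Tri label contrast therefore mixes the sexes and cannot show whether they differ.

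The genes that followed each member most closely, among protein-coding genes with a mean of at least 1 CPM, were found from log2 CPM centred on the group means. Over the 48 PND14 and 3-Tri libraries *Bcas1* went with *Mobp* (r = 0.85), *Ugt8a* (0.83) and *Enpp6* (0.82), and *Enpp6* with *Ugt8a* (0.84), *Mobp* (0.83) and *Slc44a1* (0.83). *Gpr17* went with *Lims2*, whose exons overlap its own (0.99, and 0.98 over the 24 PND1 libraries), and then with *Fcrls* (0.74) and *Igsf8* (0.73). *Neu4* went with *Prima1*, *Ahcyl2* and *Krt20* (0.80 each) and *Tns3* with *Nfasc* (0.75), *Syt2* (0.74) and *E330009J07Rik* (0.72). *Bmp4* went with *Borcs7* (0.68), *Gadd45gip1* (0.67) and *Dcakd* (0.64).

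The precursor genes had other companions in the same 48 libraries. *Ptprz1* went with *Clasp2* and *Agtpbp1* (0.81 each) and *Mki67* (0.80), *Pdgfra* with *Notch1* (0.67), *Apc* (0.66) and *Map2* (0.65), and *Cspg4* with *Pcnt* (0.67), *Phf24* (0.64) and *Slit3* (0.63). The 15 pairs within the newly formed genes had a median r of 0.51 (-0.18 to 0.82), the 3 pairs within the precursor genes 0.24 (0.02 to 0.55), and the 18 pairs across the stages 0.03 (-0.31 to 0.55). Over the 24 PND1 libraries *Bcas1* went with *Lynx1* (0.94), *Sparcl1* (0.94) and *Ret* (0.93). *Enpp6* went there with *Ednrb* (0.90), *Spock3* (0.88) and *Gng12* (0.87), and *Gpr17* with *Lims2* (0.98), *Dgkk* (0.90) and *Htr1b* (0.85). *Tns3* went with *Spata18* (0.81), *Acadm* (0.79) and *Adamts5* (0.79) and *Bmp4* with *Plekhg3* (0.79), *Edn3* (0.79) and *Klhdc7a* (0.77). Of the precursor genes *Ptprz1* went with *Spag9* (0.93), *Scai* (0.92) and *Ccdc88a* (0.91), *Pdgfra* with *Lifr* (0.84), *Usp25* (0.81) and *Lrrc58* (0.80) and *Cspg4* with *Vcl* (0.83), *Dnah8* (0.80) and *Fermt2* (0.79). *Neu4*, whose mean at PND1 was under 1 CPM, was not ranked there. These values are across libraries that share depth and tissue composition, and are a description.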

How the data were processed

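Count tables were made by the authors: per the labels, reads were trimmed with Trim Galore 0.6.6, aligned to mm10 with HISAT2 2.2.1 and assigned to genes with featureCounts 2.0.1, and the study's methods give GENCODE M25 and the removal of duplicate reads. The authors deposited raw gene counts for 72 libraries, used here as they stand. Tables of the authors' own comparisons gave the gene names, and their fold change and p-value columns were not used. Every count column matched 1 sample (0 unmatched), and 55141 of 55401 identifiers matched a gene name. The filter kept genes by edgeR's default rule (minimum count 10, minimum total 15).

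Counts were scaled by TMM and tested with the quasi-likelihood test of edgeR 4.0.16 in R 4.3.3, within a window (4 groups of drug and gender label) for morphine against saline and over all 72 libraries for windows, with Benjamini-Hochberg adjustment over all genes tested and a call at 0.05. CPM values are TMM-scaled, log2 CPM used a prior count of 2, and levels per kb used the exon union length. Intervals are 95% and come from the fit's standard errors. Permutation tests were run over libraries. The edgeR fit was also run on simulated counts. Those libraries were drawn independently, without differences by ID number, *Hox* level or gender label, so the simulation is no check on these. DESeq2 1.42.0, limma 3.58.1 and the other settings of the closing section were alternatives. The PND1 libraries were called high in *Hox* genes above a summed 30 CPM, a choice made after seeing the data. All 9 genes were tested in every comparison, and the text names up to 3 genes with the smallest p of a companion list, and the 3 closest genes by r of each member. The 9 genes, the lists and the tests were chosen with earlier results of these data known.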

Additional observations from a re-analysis of the deposited data

Results flagged for a closer look

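In 108 groups of 4 to 7 libraries (each gene in each window, drug and gender label), 11 held a library whose gap to its neighbours was large for the range of the group. Chance alone marks about 1 in 20 groups. *Bmp4* accounted for 5 of them. At PND1 it had 2.45 CPM in morphine female replicate 2 (the others 3.18 to 3.28 CPM), 2.47 CPM in morphine male replicate 10 (3.13 to 3.53) and 2.58 CPM in saline male replicate 14 (3.79 to 4.94). At PND14 it had 14.4 CPM in morphine female replicate 4 (8.45 to 10.2), a shallow library in which this value is 54 counts, and at 3-Tri 11.1 CPM in morphine male replicate 8 (9.68 to 10.1).

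*Ptprz1* had 498 CPM in morphine male replicate 5 at PND1 (611 to 663 in the others), 417 CPM in saline male replicate 3 at 3-Tri (489 to 532) and 528 CPM in saline female replicate 10 at 3-Tri (452 to 475). *Neu4* had 0.265 CPM in saline male replicate 11 at PND1 (0.465 to 0.681) and 10.4 CPM in saline male replicate 1 at 3-Tri (17.9 to 21.2), the shallowest library, where it is 28 counts. *Tns3* had 143 CPM in morphine female replicate 7 at 3-Tri (119 to 125).

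The morphine effect differed between windows by edgeR's test of the difference for *Enpp6* (-0.70), *Bcas1* (-0.53) and *Ptprz1* (-0.20) between PND14 and PND1, and for *Ptprz1* (-0.23) between 3-Tri and PND1.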

How the results depend on the processing

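Of 316 counts of called genes recomputed under other settings, 276 stayed within 1.5 times and 40 did not, and of 619 recomputed changes of called genes 525 kept the call, 92 lost it and 2 changed sign. At PND1 over both labels the count of 2 became 1 (*Ptprz1*) without the libraries high in *Hox* genes, and leaving out any 1 PND1 library kept both calls. In pups labelled male the 3 PND1 calls became 0 without the filter on low counts, with a GC and length correction, with the *Hox* covariate and without the high *Hox* libraries, and 0 to 3 when 1 library was left out (0 or 1 without morphine male replicate 6, 7, 8, 9 or 10 or saline male replicate 9, 10, 11 or 13). At PND14 the 4 calls became 3, 2, 0 and 0 without ID 4422, 4423, 4424 and 4425 and 0 with counts summed per ID. In pups labelled male the 2 PND14 calls became 4 in DESeq2 and 1, 0, 0 and 0 without the same IDs. The 1 call of 3-Tri over PND14 in morphine libraries became 0 without libraries against their gender label and 2 without the high *Hox* libraries. The 1 call in the 3-Tri and PND1 difference became 0 in each of these and with the GC and length correction, and the 3-Tri and PND14 difference gained 1 in DESeq2. The 1 gender call became 2 in DESeq2 and without libraries against their label, and 0 with the GC and length correction. *Ptprz1* lost its call in the PND14 and PND1 difference under 7 settings (adjusted p = 0.054 to 0.52). The causes were not tested.

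The replicate numbers do not pair the samples: of 31 same-numbered pairs 5 had correlated deviations above 0.1 (r -0.217 to 0.209). With the number as a block the counts became 5 for PND1 (*Pdgfra*, *Bcas1* and *Enpp6* added), 2 for 3-Tri over PND14 under morphine, 2 for the 3-Tri and PND1 difference and 0 for the gender call, where *Pdgfra* turned to 0.04. With block and GC and length correction together they were 3 for PND1 (without *Bmp4*), 0 for males at PND1, 2, 0 and 0 (*Pdgfra* 0.03). The gender contrast could not be fitted with the block at PND14 and 3-Tri. At PND1 it rested on the numbers 5, 6 and 7, the only ones with both labels, and is no check there. Depth limits *Neu4* and *Enpp6* at PND1 most, at 3 to 31 and 11 to 90 counts a library.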
